A study of Drosophila melanogaster with 16 samples.

Results

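The antimicrobial peptide genes of Drosophila melanogaster were followed in whole adult testes of 3 genotypes. Of 9 proposed genes, 5 had a probe set whose platform symbol was exactly the gene: Drs (Drosomycin), Mtk (Metchnikowin), DptB (Diptericin B), Def (Defensin) and Anp (Andropin). Each had 1 probe set, so they were 5 of the 10862 genes named on an array of 13966 probe sets. AttA, AttB and CecA1 were not analysed here. DptA (Diptericin A) had no platform symbol and was reached through a RefSeq synonym that is the probe set's own name. It therefore stands outside the choice of members, and its values are given only beside those of DptB.

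RNA was hybridised to 16 single-colour Affymetrix arrays, 6 of Os+bgcn testes, 5 of bgcn testes and 5 of wild-type testes, and the series calls the replicates biological. The bgcn gene is needed, together with bam, for spermatogonia to stop dividing, and germ cells without it keep dividing instead of becoming spermatocytes. Both mutant groups carry bgcn-; Os+bgcn testes carry Os as well, read here as outstretched, an older name of upd1, which encodes a secreted JAK-STAT ligand. The driver of Os, the bgcn alleles and the age of the flies are not given in the sources used here. A bgcn sample pooled 750 testes, against 150 in every Os+bgcn and wild-type sample, so genotype and number of testes cannot be told apart in comparisons with bgcn. For the wild-type samples the extraction protocol names bgcn- testes, and the groups used here follow the titles.

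Antimicrobial peptides are short secreted proteins that damage bacteria and fungi. In the fly their genes are switched on mainly in the fat body, the insect counterpart of liver and fat tissue, and also in hemocytes (blood cells) and in epithelia that line ducts and surfaces. The Toll pathway, which answers fungi and many Gram-positive bacteria, and the Imd pathway, which answers many Gram-negative bacteria, end in NF-kappaB factors that act on these genes. Drs, an antifungal peptide gene, is the usual readout of Toll, and the Diptericin genes are the usual readout of Imd. Mtk responds to both. Def encodes a peptide active against Gram-positive bacteria, and Anp encodes a male peptide made in the ejaculatory duct without infection.

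Values are MAS5 signals, the linear brightness per probe set that the authors deposited, with every array scaled to a common level (trimmed mean 148.3 to 149.2). The median signal of an array was 66.95 to 74.5 in Os+bgcn, 67.8 to 74.2 in bgcn and 56.2 to 59.4 in wild type. upd1 had a signal of 254.7 to 636.7 in Os+bgcn, against 3.8 to 15.3 in bgcn and 5.1 to 18.5 in wild type. The bgcn transcript averaged 84.8 in Os+bgcn, 67.7 in bgcn and 104 in wild type, and whether its probe set lies in the mutated part of the gene was not analysed here. Differences were tested with limma on log2(signal + 18.8), a scale that understates the change of dim genes, over the 10422 probe sets that exceeded a signal of 42.9 on at least 5 arrays. A change is called at an adjusted p under 0.05, with Benjamini-Hochberg adjustment across these probe sets. Drs, Mtk, DptB and Anp passed this filter, 4 of the 5 members, as did DptA. Def exceeded 42.9 on 4 arrays, all of them Os+bgcn, and was tested only in a fit without the filter.

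By group mean the peptide genes were highest in bgcn testes and lower in testes that also carried Os, except Def, which was highest in Os+bgcn. Drs, Mtk, DptB and Anp all fell in Os+bgcn against bgcn, by 1.49-fold for DptB to 9.37-fold for Anp. Of the 4 members tested, 0 rose and 4 fell in this comparison. Among all tested probe sets 11.6% rose and 8.91% fell, a smaller share than the 4 of 4 seen for these genes, which were chosen with earlier results of these data known. In bgcn against wild type, Drs and Mtk rose, 2 of the 4, and 0 fell, where 47.2% of all tested probe sets rose and 22.6% fell, so the number of members that rose was near the share of all probe sets. In Os+bgcn against wild type 0 rose and 1, Anp, fell, where 47.3% of all tested probe sets rose and 24.2% fell. The comparisons share arrays, so a gene that is high in bgcn alone appears in both comparisons with bgcn.

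**Figure D1:**
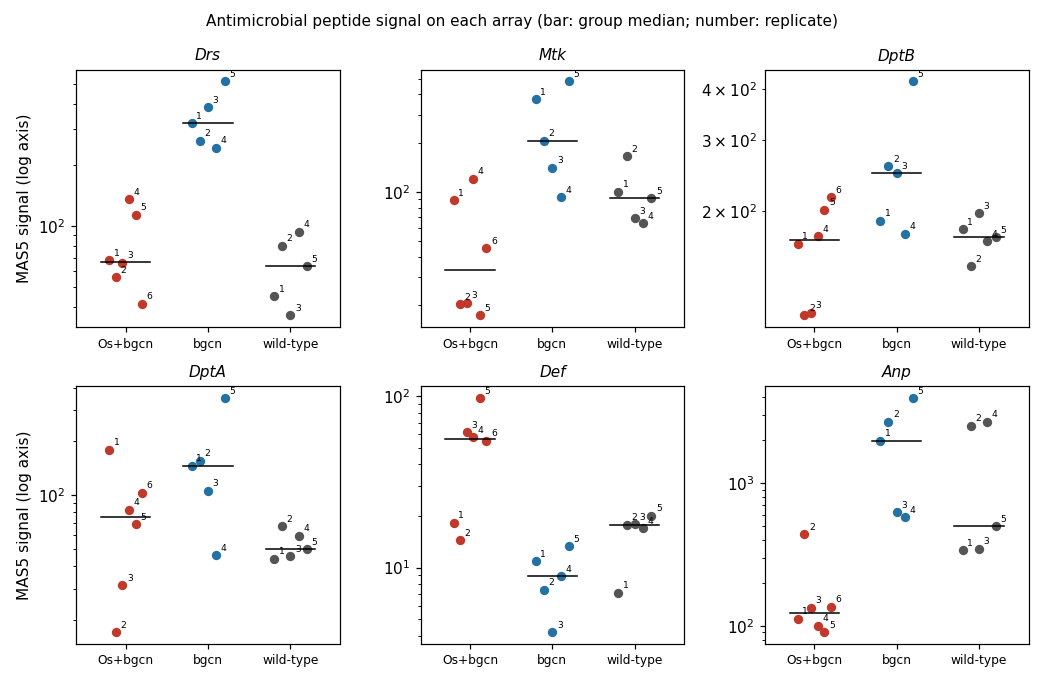
MAS5 signal of each peptide gene on each array (log axis, a panel per gene), with Os+bgcn, bgcn and wild-type arrays from left to right; a point is an array, the number beside it is its replicate and the bar is the group median. All 5 bgcn arrays lie above every Os+bgcn and wild-type array for Drs, all 5 lie above every Os+bgcn array for Anp, and Def is highest on 4 of the 6 Os+bgcn arrays.

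The Toll readout Drs separated the bgcn group from both others. Its signal in Os+bgcn ran from 41.4 through a median of 66.75 to 135.4. It was 319.5, 263.1, 382.9, 241.7 and 514.3 on the bgcn arrays, and 45.1, 80.2, 36.4, 93.9 and 63.4 on the wild-type arrays. Every bgcn array exceeded every array of the other groups, while Os+bgcn and wild type overlapped over most of their ranges. Group means were 79.97 ± 36.3 (SD, n = 6) in Os+bgcn, 344 ± 110 in bgcn and 63.8 ± 23.9 in wild type (n = 5 each). Drs fell 3.75-fold in Os+bgcn against bgcn, a log2 change of -1.91 ± 0.26 (SE; limma adjusted p = 2.5e-05), and this call held in all 32 settings and array omissions run. It was 4.40-fold higher in bgcn than in wild type, a log2 change of 2.14 ± 0.27 (adjusted p = 5.7e-07). Between Os+bgcn and wild type the difference was 0.23 ± 0.26 (adjusted p = 0.43). On the same scale the median of all tested probe sets differed by 0.03, 0.46 and 0.43 in these comparisons, so Drs in bgcn stood 1.68 above the median difference from wild type.

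The size of the differences from wild type depends on the scaling. Centring the arrays on 5 ribosomal protein genes moved the median of all tested probe sets in bgcn against wild type to -1.66, against 0.46, and in Os+bgcn against wild type to -1.42, against 0.43. With that centring Drs differed by only 0.02 (adjusted p = 0.95) between bgcn and wild type. The centring moves all probe sets of an array alike. Differences of the tested peptide genes from wild type are therefore also given relative to the median of all tested probe sets. For Os+bgcn against wild type they were -0.20 for Drs, -1.29 for Mtk, -0.53 for DptB, -0.17 for DptA and -2.83 for Anp. For bgcn against wild type that of Anp was 0.37, and those of Mtk, DptB and DptA are given below. RNA of a whole testis also cannot tell fewer cells of a type from less RNA per cell.

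Mtk, which both pathways control, varied more than Drs among the arrays of both mutant groups. Its signal in Os+bgcn ran from 17.4 through a median of 32.9 to 120.6. On the bgcn arrays it was 373.0, 206.7, 141.3, 92.8 and 480.6, and on the wild-type arrays 100.3, 166.1, 68.7, 64.3 and 91.3. Only bgcn arrays 1, 2 and 5 exceeded all arrays of the other groups, and Os+bgcn array 4 lay above bgcn array 4. The highest array exceeded the lowest 6.93-fold in Os+bgcn and 5.18-fold in bgcn, against 3.27-fold and 2.13-fold for Drs. Means were 52.2 ± 43.1 (SD, n = 6) in Os+bgcn, 259 ± 163 in bgcn and 98.1 ± 40.9 in wild type (n = 5 each). Mtk fell 3.90-fold in Os+bgcn against bgcn, a log2 change of -1.96 ± 0.40 (limma adjusted p = 0.0015). In bgcn it was 2.14-fold higher than in wild type, a log2 change of 1.10 ± 0.42 (adjusted p = 0.025) that stood 0.64 above the median of all probe sets and turned to -1.02 with ribosomal centring. That call did not pass when bgcn array 1, bgcn array 5, wild-type array 3 or wild-type array 4 was left out (log2 0.83 to 1.01), and it passed as higher in 20 of 32 settings and array omissions. Between Os+bgcn and wild type the difference was -0.87 ± 0.40 (adjusted p = 0.058). It passed under several other settings, for example at -1.09 (adjusted p = 0.023) with quantile normalization.

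DptB, a readout of Imd, differed least among the tested members. Its signal in Os+bgcn ran from 110.7 through a median of 170 to 216.5. On the bgcn arrays it was 189.3, 258.4, 248.1, 176.2 and 418.9, and on the wild-type arrays 180.7, 146.3, 197.6, 168.7 and 172.6. bgcn arrays 2, 3 and 5 lay above all others, and bgcn arrays 1 and 4 lay among the arrays of the other groups. Means were 164 ± 44.2 (SD, n = 6) in Os+bgcn, 258 ± 96.7 in bgcn and 173 ± 18.7 in wild type (n = 5 each). The fall of 1.49-fold in Os+bgcn against bgcn, a log2 change of -0.58 ± 0.20, lay close to the threshold (limma adjusted p = 0.048). It passed in 4 of the 16 fits that left out an array, and in the other 12, those without bgcn array 2, 3 or 5, Os+bgcn array 1, 2, 3 or 4, or any one wild-type array, the change lay between -0.60 and -0.40 (adjusted p = 0.054 to 0.15). DptB differed by 0.47 ± 0.21 between bgcn and wild type (adjusted p = 0.053), which is 0.013 above the median of all probe sets and turned to -1.64 with ribosomal centring. It passed as higher in 12 of 32 settings and array omissions, for example at 0.63 (adjusted p = 0.014) with the accessory gland score as a covariate. Between Os+bgcn and wild type it differed by -0.11 ± 0.20 (adjusted p = 0.65), and by -1.95 (adjusted p = 2.7e-08) with ribosomal centring.

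DptA is the neighbour of DptB in the genome, and the RefSeq gene table (Release 6 plus ISO1 MT) lists them next to each other. Its signal in Os+bgcn ran from 17.1 through a median of 75.65 to 178.9. On the bgcn arrays it was 146.5, 156.0, 106.0, 46.1 and 349.2, and on the wild-type arrays 44.0, 66.8, 45.4, 59.2 and 49.8. The wild-type arrays were tightly grouped, whereas both mutant groups spread widely, 10.5-fold from lowest to highest in Os+bgcn and 7.57-fold in bgcn, against 1.52-fold in wild type. DptA differed by -0.85 ± 0.40 in Os+bgcn against bgcn (limma adjusted p = 0.14). It was higher in bgcn than in wild type by 1.11 ± 0.41 (adjusted p = 0.023), which stood 0.65 above the median of all probe sets and turned to -1.01 with ribosomal centring. Without bgcn array 5 that difference was 0.79 (adjusted p = 0.084). It passed as higher in 23 of 32 settings and array omissions, and not, among others, with median centring (adjusted p = 0.072), array weights (0.13) or the fat body score (0.15). Against wild type, Os+bgcn differed by 0.26 ± 0.40 (adjusted p = 0.58).

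Def was dim everywhere except on part of the Os+bgcn arrays. Its signal in Os+bgcn ran from 14.4 through a median of 56.35 to 97.6. It was 10.9, 7.4, 4.2, 8.9 and 13.3 on the bgcn arrays, and 7.1, 17.8, 17.9, 17.0 and 20.1 on the wild-type arrays. Os+bgcn arrays 3, 4, 5 and 6 stood above all others, Os+bgcn arrays 1 and 2 lay within the wild-type range, and every bgcn array lay below every Os+bgcn array. Means were 50.8 ± 30.9 (SD, n = 6) in Os+bgcn, 8.94 ± 3.45 in bgcn and 15.98 ± 5.10 in wild type (n = 5 each). In the fit without a filter Def passed as higher in Os+bgcn than in bgcn (limma adjusted p = 0.0039) and than in wild type (adjusted p = 0.0073), and not between bgcn and wild type (adjusted p = 0.35). No fold is given, since the bgcn signals lie below the added 18.8, which then largely sets its size. Its signals outside Os+bgcn were 4.2 to 20.1, dim values for which detection calls were not used here, and Def was not fitted under the other scalings.

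Anp, the ejaculatory duct peptide, had the largest fall of the tested members in Os+bgcn. Its signal in Os+bgcn ran from 90.3 through a median of 122.85 to 436.9. On the bgcn arrays it was 1968.8, 2686.7, 623.4, 575.0 and 3926.1, and on the wild-type arrays 337.8, 2505.2, 346.2, 2694.7 and 498.1. No Os+bgcn array reached any bgcn array, and 5 of the 6 lay below all wild-type arrays, Os+bgcn array 2 being the exception. Within wild type, arrays 2 and 4 stood far above arrays 1, 3 and 5. Means were 168 ± 133 (SD, n = 6) in Os+bgcn, 1956 ± 1423 in bgcn and 1276 ± 1212 in wild type (n = 5 each). Anp fell 9.37-fold in Os+bgcn against bgcn, a log2 change of -3.23 ± 0.59 (limma adjusted p = 0.00058), and by -2.40 ± 0.59 against wild type (adjusted p = 0.0011). Without bgcn array 5 and wild-type arrays 2 and 4, an alternative chosen after seeing the data, the fall against wild type was -1.33 (adjusted p = 0.022). Between bgcn and wild type Anp differed by 0.83 ± 0.62 (adjusted p = 0.24), and in the fit without those same arrays it was 1.56 higher in bgcn (adjusted p = 0.015). With ribosomal centring the bgcn difference turned to -1.29 (adjusted p = 0.0074).

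**Figure D2:**
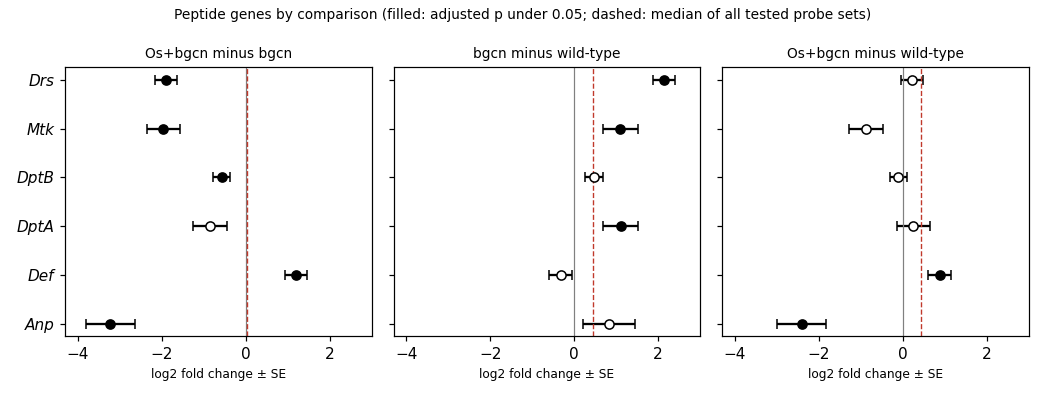
Log2 fold change of each peptide gene in the 3 comparisons (x axis; point and bar are the limma estimate and its standard error, from the fit without a filter for Def), filled where the adjusted p was under 0.05, with the median of all tested probe sets dashed. Only Def lies to the right of 0 in Os+bgcn against bgcn, where the pseudocount largely sets its size, and Drs lies farthest to the right in bgcn against wild type, at 2.14; with ribosomal centring that Drs difference was 0.02, and those of Mtk, DptB, DptA and Anp were negative.

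Markers of the accessory gland and ejaculatory duct, the tissues that lie next to the testis in the male tract, fell with Anp in Os+bgcn against bgcn. All 16 markers of that list were tested, and 16 fell in this comparison, with a median of -2.48, where 8.91% of all tested probe sets fell. In Os+bgcn against wild type 13 of the 16 fell, where 24.2% of all tested probe sets fell. The 1 that rose there was Gld, by 1.07 on the log2 scale (limma adjusted p = 0.00017), where Anp differed by -2.40. Gld was also higher in bgcn than in wild type, by 1.70 (limma adjusted p = 1.1e-06). Most of the list are Acp genes, named for the accessory gland, so it describes the gland more than the duct. In bgcn against wild type 2 of the 16 rose and 1 fell, where 47.2% of all tested probe sets rose and 22.6% fell. The summed signal of the list was 497.8 to 3542.0 in Os+bgcn, 4468.9 to 25624.9 in bgcn and 7815.5 to 29591.3 in wild type. An accessory gland score, the median log2 value of the 16 markers on an array, averaged 6.54 ± 0.82 (SD, n = 6) in Os+bgcn, 8.91 ± 1.14 in bgcn and 8.06 ± 0.71 in wild type (n = 5 each). With that score as a covariate, Anp differed by -1.81 between Os+bgcn and bgcn (limma adjusted p = 0.23) and by -1.49 between Os+bgcn and wild type (adjusted p = 0.060). In the same fit Drs fell by 1.56 on the log2 scale in Os+bgcn against bgcn (adjusted p = 0.023), DptB fell by 1.01 (adjusted p = 0.047) and Mtk differed by -1.90 (adjusted p = 0.086). Over the 16 arrays, deviations of Anp from its group means correlated with those of the score at 0.46. Without bgcn arrays 1 and 2, which had the highest scores of their group, Anp fell by 2.82 on the log2 scale in Os+bgcn against bgcn (adjusted p = 0.0099), Drs fell by 2.03, Mtk fell by 1.76 (adjusted p = 0.016) and DptB differed by -0.67 (adjusted p = 0.061). bgcn array 5 held the highest Anp signal, 3926.1, with a score of 7.99, below the 10.4 of bgcn array 1.

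**Figure D3:**
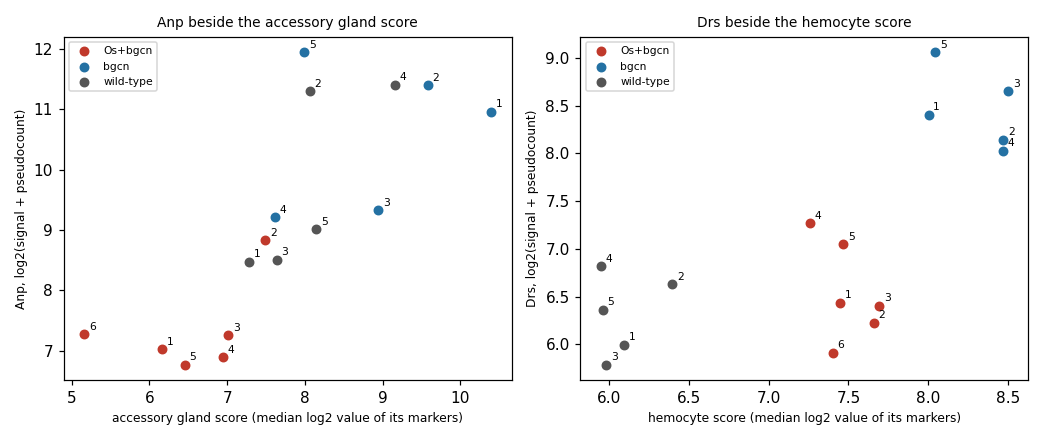
Left, Anp on the log2(signal + pseudocount) scale against the accessory gland score; right, Drs against the hemocyte score, each score being the median log2 value of its markers and each point an array, numbered by replicate. All Os+bgcn arrays but array 2 lie below every other array for Anp, the 6 have scores of 5.16 to 7.49, and the bgcn arrays lie highest for Drs and have hemocyte scores up to 8.50.

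Hemocyte markers, like Drs, were highest in bgcn. Of 9 tested markers 6 fell in Os+bgcn against bgcn and 0 rose, with a median of -1.07, where 8.91% of all tested probe sets fell. All 9 rose in bgcn against wild type, with a median of 1.61, where 47.2% of all tested probe sets rose. In Os+bgcn against wild type 5 of the 9 rose and 0 fell, with a median of 0.96, where 47.3% of all tested probe sets rose. Drs, Mtk and DptB were not called in that comparison and Anp fell. Hml, a hemocyte clotting protein gene, fell by 1.86 on the log2 scale in Os+bgcn against bgcn (adjusted p = 2.8e-05). The summed signal of the list was 1928.2 to 4683.5 in Os+bgcn, 4434.7 to 5160.7 in bgcn and 1162.3 to 1606.1 in wild type. The hemocyte score was 7.49 ± 0.16 (SD, n = 6) in Os+bgcn, 8.30 ± 0.25 in bgcn and 6.08 ± 0.19 in wild type (n = 5 each), and the groups did not overlap. Within groups, deviations of Drs from its means correlated with those of the score at -0.29 and those of Mtk at -0.51 over 16 arrays. With the hemocyte score as a covariate Drs fell by 2.44 on the log2 scale in Os+bgcn against bgcn (adjusted p = 0.014), Mtk fell by 3.51 (adjusted p = 0.013), Anp differed by -3.18 (adjusted p = 0.16) and DptB by -1.29 (adjusted p = 0.066). In bgcn against wild type no member passed with that covariate, but 3 estimates were larger, 3.61 for Drs (SE 1.31, adjusted p = 0.083), 5.35 for Mtk (SE 1.86, adjusted p = 0.069) and 2.41 for DptB (SE 0.96, adjusted p = 0.11), while that of Anp was 0.71 (SE 3.14, adjusted p = 0.92). For Anp in Os+bgcn against wild type the estimate was -2.48 (SE 2.05, adjusted p = 0.40), close to the -2.40 without the covariate. Because the score separates the groups, it and the genotype cannot be fully told apart in that fit, which called 180 probe sets lower in Os+bgcn against bgcn where 929 were called without it.

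Of 9 tested fat body markers 1 rose and 2 fell in Os+bgcn against bgcn, where 11.6% of all tested probe sets rose and 8.91% fell. Against wild type, 4 of the 9 rose in bgcn, where 47.2% of all tested probe sets rose. The summed signal of the fat body list was 1626.3 to 2775.0 in Os+bgcn, 2322.0 to 3446.3 in bgcn and 782.9 to 1133.2 in wild type. Much of that gap came from FASN1, which averaged 760, 770 and 96.7 in these groups, and Lip4, with 206, 653 and 71.9. The other 5 of the 9 markers, apolpp among them, did not pass between bgcn and wild type. With the fat body score as a covariate, Drs fell by 1.93 on the log2 scale in Os+bgcn against bgcn (adjusted p = 0.00047), Mtk fell by 1.76 (adjusted p = 0.022) and Anp fell by 2.47 (adjusted p = 0.018). Of 11 tested markers of the muscle sheath around the testis 7 fell in Os+bgcn against bgcn, beside 8.91% of all tested probe sets. In bgcn against wild type 10 rose, beside 47.2% of all tested probe sets. The summed signal of the muscle list was 1531.9 to 2513.6 in Os+bgcn, 3507.6 to 4238.3 in bgcn and 1032.3 to 1356.5 in wild type. The part of muscle RNA in the peptide differences was not tested.

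In bgcn the peptide genes were high together on array 5 and mostly low together on array 4, and mixed on the others. On bgcn array 2, for example, Anp deviated by 0.83 and Drs by -0.32 from their group means on the log2 scale. How many of all probe sets were highest or lowest on arrays 5 and 4 was not analysed here. bgcn array 5 held the highest bgcn value of all 6 genes, DptA included, with a median deviation of 0.89 from the group means on the log2 scale. bgcn array 4 held the lowest for 5 of the 6, with a median deviation of -0.77, Def being the exception. Wild-type arrays 2 and 4 were the highest of their group for Anp and for Drs. In Os+bgcn array 4 was highest for Drs and Mtk, and array 2 was lowest for 3 of the 6 genes but highest for Anp.

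**Figure D4:**
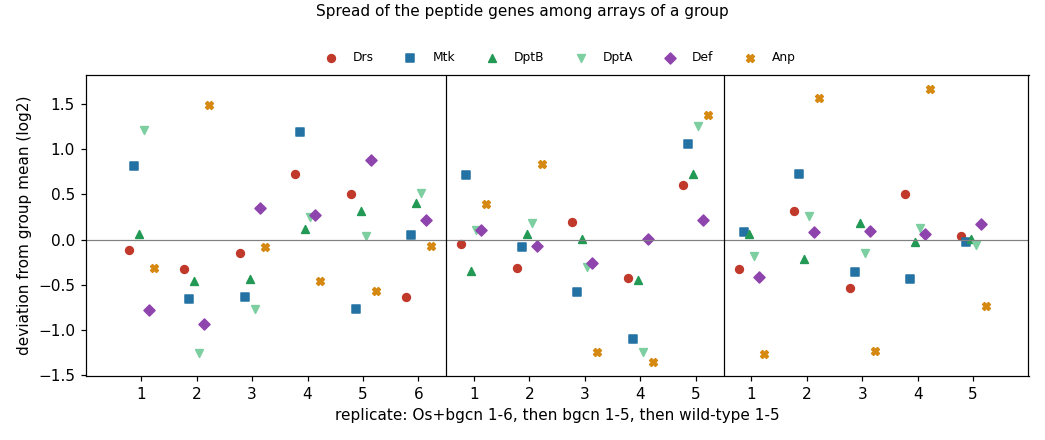
Deviation of each peptide gene from its group mean (log2 scale) on each array, with Os+bgcn, bgcn and wild-type arrays in blocks from left to right and a symbol per gene. On bgcn array 5 all 6 genes lie above 0, between 0.22 and 1.38, and on bgcn array 4 they lie between -1.36 and 0.01.

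Across the 16 arrays the deviations of Mtk and DptA correlated at 0.77 and those of DptB and DptA at 0.75, while those of Drs correlated at 0.29 to 0.40 with Mtk, DptB and DptA. Anp correlated at -0.02 with DptB and at 0.32 with Drs. The points share libraries and group centring, so these values are descriptions. The genes whose deviations were most like those of Anp, of 5720 probe sets searched, were Spn77Bb (0.93), Corp (0.87) and dco (0.85). For Drs they were NdufV3 (0.76), Plap (0.74) and Bbd (0.71), for Mtk they were Naa20A (0.90), ssp5 (0.83) and eIF1 (0.83), and for DptB they were TBC1D16 (0.92), Nplp1 (0.83) and Ssl (0.79). Members themselves were left out of this search.

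Some further peptide genes fell in Os+bgcn too. A list of further antimicrobial peptides held 7 tested genes, of which 0 rose and 2 fell in Os+bgcn against bgcn, beside 8.91% of all tested probe sets that fell. Of these genes 4 rose and 0 fell in bgcn against wild type, beside 47.2% that rose. Of the 7, 3 are bomanins (BomS2, BomBc2 and BomT2), which are counted again with their family, and among the other 4, AttD, Dro, Drsl5 and Drsl6, only Drsl5 passed in either comparison. Drsl5, a Drosomycin-like gene, averaged 63.05 ± 21.0 (SD, n = 6) in Os+bgcn, 220 ± 74.3 in bgcn and 128 ± 20.5 in wild type (n = 5 each). It fell by 1.53 ± 0.22 on the log2 scale in Os+bgcn against bgcn (limma adjusted p = 6.6e-05) and by 0.88 against wild type (adjusted p = 0.0016), and its rise of 0.65 in bgcn (adjusted p = 0.018) turned to -1.46 with ribosomal centring.

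The bomanins are short immune peptides of the fly that the Toll pathway controls, and their family was taken as every gene symbol with the prefix Bom, a list added after the platform names were seen. All 8 rose in bgcn against wild type, with a median of 2.20 that lay 1.74 above the median of all probe sets, where 47.2% of all tested probe sets rose. With ribosomal centring 1 rose and 1 fell, where 232 of the 10422 tested probe sets rose and 8123 fell. Of the 8, 0 rose and 5 fell in Os+bgcn against bgcn, with a median of -0.96, where 11.6% of all tested probe sets rose and 8.91% fell. BomBc3 fell by 1.37 ± 0.36 on the log2 scale (limma adjusted p = 0.010) and BomS6 fell by 1.35 ± 0.24 (adjusted p = 0.00042), while BomBc2 differed by -0.40 (adjusted p = 0.38). With ribosomal centring 2 bomanins fell in this comparison, beside 305 of the 10422 tested probe sets. With the accessory gland, hemocyte or fat body score as covariate 1 fell, beside 319, 180 and 656 probe sets. Against wild type, 7 of the 8 bomanins rose in Os+bgcn, with a median of 1.19, where 47.3% of all tested probe sets rose. Of the 8, 0 rose and 4 fell there with ribosomal centring, where 632 of the 10422 tested probe sets rose and 7307 fell. Drs overlapped with wild type there, and its difference from the bomanins was not tested. Among the bgcn arrays, array 5 was highest for 3 of the 8 bomanins and array 4 lowest for 4. Array 1 was also highest for 3, and lowest for 3, and array 2 was highest for 2. The median deviation of the bomanins was 0.10 on array 5, against 0.34 on array 1 and 0.41 on array 2.

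**Figure D5:**
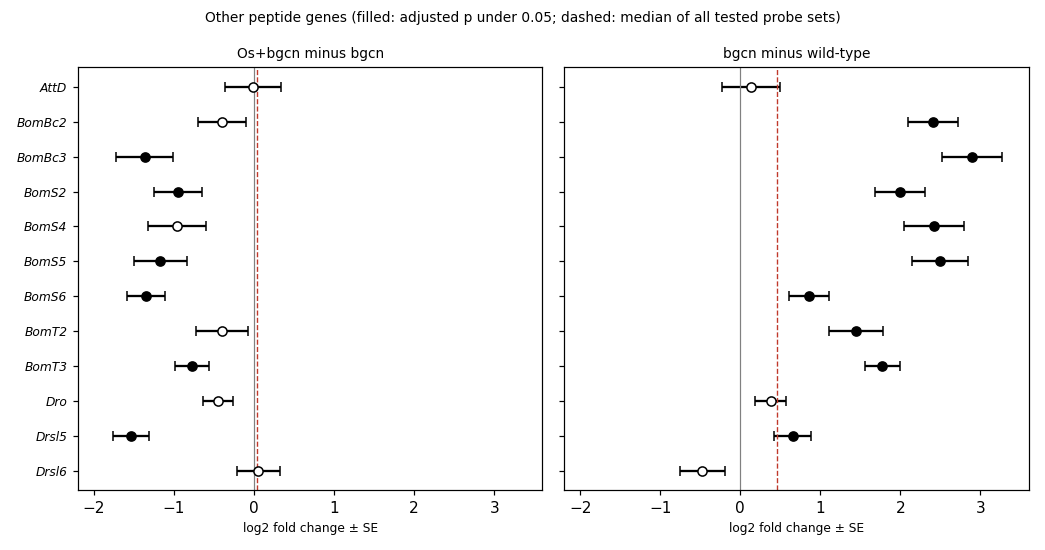
Log2 fold change of the other tested peptide and bomanin genes in Os+bgcn against bgcn and in bgcn against wild type (x axis; point and bar are the limma estimate and its standard error), filled where the adjusted p was under 0.05, with the median of all tested probe sets dashed. All 8 bomanins lie right of 0 in bgcn against wild type, with a median of 2.20. With ribosomal centring 1 of them passed as higher, where 232 of the 10422 tested probe sets rose and 8123 fell.

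The genes that carry the Toll and Imd signals were set beside their targets in Os+bgcn against bgcn, where 11.6% of all tested probe sets rose and 8.91% fell. Of 17 tested Toll pathway genes 0 rose and 1 fell, with a median of -0.00. Of 17 tested Imd genes 3 rose and 3 fell, with a median of 0.21. Leaving out an array gave 2 to 3 Imd genes higher and 3 to 4 lower. The Toll gene that fell was nec (necrotic), a serpin inhibitor upstream of Toll, by 1.31 ± 0.23 on the log2 scale (limma adjusted p = 0.00042). Of the Imd genes, imd itself fell by 1.17 ± 0.31 (adjusted p = 0.010) and Diap2 by 0.62 ± 0.17 (adjusted p = 0.013). PGRP-SC2, an amidase that degrades the peptidoglycan sensed by Imd, fell by 0.96 ± 0.25 (adjusted p = 0.010). Among the 3 Imd genes that rose was key, by 0.59 ± 0.15 (adjusted p = 0.0091). Rel (Relish), the NF-kappaB factor of Imd, differed by 0.53 (adjusted p = 0.12), and tub (tube), an adaptor of Toll, by 0.19 (adjusted p = 0.53).

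In bgcn against wild type 12 of the 17 Toll genes and 11 of the 17 Imd genes rose and 0 fell. Among all tested probe sets 47.2% rose and 22.6% fell there. The medians of the lists lay 0.25 and 0.34 above that of all probe sets. With ribosomal centring 0 rose in either list, and 11 Toll and 14 Imd genes fell. In that setting 232 of the 10422 tested probe sets rose and 8123 fell. Rel was higher by 1.68, tub by 2.08 and PGRP-SC2 by 2.34 in bgcn, values that turned to -0.43, -0.034 and 0.22 with ribosomal centring. Of 3 tested humoral targets of JAK-STAT 1 rose and 2 fell in Os+bgcn against bgcn, where 11.6% of all tested probe sets rose and 8.91% fell. Tep4 rose by 0.76 ± 0.20 (limma adjusted p = 0.0094), and vir-1, a gene induced by viral infection, fell by 0.99 ± 0.15 (adjusted p = 0.00012). Of 11 tested lysozyme, prophenoloxidase and transferrin genes 1 rose and 8 fell in the same comparison. PPO1, a prophenoloxidase of the melanisation reaction, fell by 1.52 ± 0.41 (adjusted p = 0.013), and Tsf1, an iron-binding transferrin, rose by 1.32 ± 0.21 (adjusted p = 0.00019). With the hemocyte score as a covariate none of Drsl5, BomBc3, PGRP-SC2, Tsf1, PPO1, nec and vir-1 passed in Os+bgcn against bgcn. The estimates of Drsl5 (-1.60), BomBc3 (-1.19), PGRP-SC2 (-1.12), Tsf1 (1.34) and PPO1 (-1.14) stayed near those without it, with larger errors, and those of nec (-0.80) and vir-1 (-0.57) were smaller.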

How the data were processed

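Testis RNA was read on 16 arrays. The authors deposited a linear signal intensity for each probe set. The submitters' processing notes name MAS5, without a version. Replicates were not pooled across arrays, and the number of arrays limits the precision. The members and the gene lists were chosen with earlier results of these data known. Of 13966 probe sets, 12393 were named by gene identifier, 49 by platform symbol and 20 by RefSeq synonym; 327 carried several genes and 1177 none. Of 133 synonyms that equal a probe set name, 111 had a platform gene, the same one in all 111.

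Signals were taken as log2(signal + 18.8), which adds the 25th percentile of all values. Probe sets that exceeded the 40th percentile, 42.9, on 5 or more arrays were fitted with limma 3.58.1 in R 4.3.3, with 1 coefficient per group over all 16 arrays and an intensity trend. Benjamini-Hochberg adjustment was made within each comparison, with a threshold of 0.05. The procedure was tested on simulated data. A gene with several probe sets was taken by the brightest. The genes named are the members, upd1, up to 3 passing genes of the largest change per list and comparison, and the 3 genes closest to each member. BomBc3 and BomS6 come from the bomanin list, which was added later. Not all genes this rule gives are printed. Samples with the same replicate number did not deviate together (correlations -0.11 to 0.20), so the numbers were not used as pairs. Alternatives were other pseudocounts (50, or none), filters, scalings, error models, covariates and array omissions. Python 3.11.15 with numpy 2.4.6, pandas 2.3.3 and matplotlib 3.10.9 made the tables and plots.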

Additional observations from a re-analysis of the deposited data

Results flagged for a closer look

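Of 72 groups of arrays examined for a value far from its neighbours, 3 held one, and chance alone marks about 1 in 20 groups. Anp on Os+bgcn array 2 stood at 8.83 on the log2 scale, above the next highest Os+bgcn array at 7.28, a gap of 0.755 of the group's range. Def on wild-type array 1 stood at 4.69, below the next lowest at 5.16, a gap of 0.796 of the range. tub on wild-type array 3 stood at 5.46, below the next lowest at 6.33, a gap of 0.832 of the range. These arrays were kept in all groups.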

How the results depend on the processing

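In Os+bgcn against bgcn no tested peptide gene changed direction under any alternative. Drs passed in 32 of 32, Mtk in 31, Anp in 30 and DptB in 11. The 4 members called lower became 2 with the accessory gland score and 2 with the hemocyte score as covariate, and 1 was called higher without the filter, Def. In bgcn against wild type the 2 members called higher became 1 with quantile normalization, median centring or array weights, and 0 with ribosomal centring or the hemocyte score; 3 were lower with ribosomal centring. In Os+bgcn against wild type 1 was higher without the filter, and the 1 called lower became 2 without a pseudocount, with quantile normalization, median centring, array weights or only both groups, 4 with ribosomal centring, and 0 with the accessory gland score (Anp -1.49) or the hemocyte score (Anp -2.48, with an SE of 2.05). Leaving out an array gave 3 to 4 lower, 1 to 3 higher and 1 to 2 lower members in these comparisons.

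Over all probe sets, between Os+bgcn and bgcn 336, 313 and 730 rose with the accessory gland, hemocyte and fat body scores, and 319 and 180 fell with the first and second of these and 305 with ribosomal centring. In bgcn against wild type 232 rose and 8123 fell with ribosomal centring, and 473 rose and 771 fell with the hemocyte score. In Os+bgcn against wild type these were 632 and 7307, and 1709 and 1379. Values reversed with ribosomal centring in bgcn against wild type were Anp -1.29, Mtk -1.02, DptB -1.64, DptA -1.01, Drsl5 -1.46, BomS6 -1.25, Rel -0.43, nec -0.33, tub -0.034, vir-1 -0.42 and PPO1 -0.040. In Os+bgcn against wild type they were Drs -1.62, DptA -1.59, BomBc3 -0.32, PGRP-SC2 -0.47, nec -1.38, vir-1 -1.13, Tsf1 -0.67, PPO1 -1.29 and Hml -1.52. vir-1 was -0.016 there with the hemocyte score. Ribosomal centring shifts all probe sets of an array alike; the cause of the other moves was not tested.

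With the replicate block Anp differed by -3.21, Drs by -1.78, Mtk by -1.97 and DptB by -0.66 between Os+bgcn and bgcn, and DptB by 0.47 (limma adjusted p = 0.045) between bgcn and wild type, which passed; no other member call changed. Dim signals limit Def most.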
